A study of Danio rerio with 16 samples.

Results

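The genes described here are axin2 and fzd8a, a negative-feedback gene and a receptor gene of the Wnt pathway, followed through 16 liver RNA-seq libraries of zebrafish. They are 2 of 35868 genes in the series table, of which 33727 were above 0 in at least 1 library, and each is a single entry of that table (MSTRG.22163 for axin2 and MSTRG.18966 for fzd8a). The genes were chosen by symbol. Both are among the candidate genes that the study had picked from its microarrays and these RNA-seq libraries together. They were listed there for a rise on the obesity diets in HBx(p53-) fish. Their values in that comparison are therefore given as a description, with no test. The microarrays were not used here.

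The Wnt ligands bind a Frizzled receptor together with a co-receptor of the Lrp5 and Lrp6 type. When no ligand is bound, a cytoplasmic complex built on an Axin scaffold marks beta-catenin for degradation. When ligand is bound, beta-catenin accumulates, enters the nucleus and switches on target genes with Tcf and Lef factors. The Axin2 gene is itself such a target in vertebrates, and its product returns to the degradation complex, which makes it a widely read sign of pathway activity. The fzd8a gene encodes one of the zebrafish Frizzled receptors. In the mammalian liver the pathway is known for setting the zones of the lobule, and it is often mutated in liver cancer.

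The fish were of the AB strain and of transgenic lines whose strain background is not given in the sources used here. All were 3 months old when feeding began, and livers were taken after 8 weeks. Transgenic fish carried HBx (the X gene of hepatitis B virus) in HBx(p53-), src in Src(p53-) or both in HBx,Src(p53-), under the hepatocyte promoter fabp10a together with a p53 mutation, and WT fish carried none of these. FAT fish received 0.5 mL of Artemia 1 time a day plus high-fat food, DIO fish were overfed with 2 mL of Artemia 3 times a day, and NOR fish, the normal diet, received 0.5 mL of Artemia 1 time a day. HBx(p53-), Src(p53-) and WT each had 1 FAT, 1 DIO and 2 NOR libraries, while HBx,Src(p53-) had 2 DIO and 2 NOR libraries and no FAT library. The FAT and DIO libraries of a type of fish were joined as the obesity diet, following the study. Every diet comparison therefore set 2 libraries against 2. The study counts as many fish as RNA-seq libraries, which amounts to a single fish per library, although the labels do not say so. The study fed both female and male fish, and the labels do not give the sex behind these libraries. Any part of sex therefore cannot be told apart from diet or type of fish. The p-values measure the spread between these libraries. In the limma fit described below, each gene had 1 spread estimate shared by all 8 groups of type of fish and diet class, HBx(p53-) included. In HBx(p53-), Src(p53-) and WT the obesity group held 1 FAT and 1 DIO library, so its spread includes any difference between these diets. No group carried the p53 mutation without a transgene, so the mutation and the transgenes cannot be told apart.

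Levels are FPKM (fragments scaled to the length of the transcript in kilobases and to the mapped fragments of the library), and their sum over all entries of a library was between 812158 and 1218152. The files give no counts, so the depth behind a gene is unknown, and a value of 0 is written as listed at 0. The hepatocyte gene fabp10a had a mean of 1918 FPKM (958 to 3312), and the 3 matched hepatocyte markers together lay between 3227 and 8418 FPKM in every library. The src gene served as a partial check of the labels, since reads of the transgene and of the zebrafish src gene cannot be separated. It had 4.90 to 47.3 FPKM in Src(p53-) and 3.47 to 15.7 FPKM in HBx,Src(p53-). In the types without a src transgene it had 1.47 to 4.15 FPKM in HBx(p53-) and 0 to 4.24 FPKM in WT. The library labelled HBx,Src(p53-) DIO 1 thus lay below the highest WT library and below both HBx(p53-) NOR libraries (4.15 and 3.51 FPKM). In bulk liver RNA, fewer cells of a type and less RNA per cell cannot be told apart.

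The axin2 gene was expressed in every library at a mean of 10.6 FPKM and varied most in HBx(p53-) fish, which held both the highest and the lowest values of the series. In HBx(p53-), axin2 had 6.49 FPKM on FAT and 26.2 FPKM on DIO, against 2.79 and 3.19 FPKM in the NOR libraries. The DIO library was the highest of all 16 and the NOR libraries were the lowest, and the FAT library came just above them. The mean was 16.3 ± 13.9 FPKM on the obesity diet and 2.99 ± 0.29 FPKM on NOR (SD, n = 2 each), a difference of 1.84 on the log2(FPKM + 1) scale. The size of this difference rested on the DIO library, since it was 0.91 with that library left out and 2.77 with FAT left out. In HBx(p53-), 12.9% of the genes averaging 1 FPKM or more had both obesity libraries above both NOR libraries. In the same libraries the summed endothelium markers (5 matched) were 11.9 to 16.8 FPKM on the obesity diet and 24.6 to 27.5 FPKM on NOR, and the bile duct markers (3 matched, nearly all of it krt8) were 71.2 to 86.2 FPKM on the obesity diet and 155 to 167 FPKM on NOR. The hepatocyte markers (3 matched) were also lower, at 4227 to 4878 FPKM on the obesity diet and 5455 to 8418 FPKM on NOR, while the leukocyte markers (4 matched) were 18.55 to 23.4 FPKM on the obesity diet and 13.2 to 18.49 FPKM on NOR. The part of these markers in the result was not tested.

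In the other types of fish axin2 stayed within a narrower band. Src(p53-) livers had 7.70 FPKM on FAT and 12.5 FPKM on DIO, against 8.77 and 20.02 FPKM on NOR. Both obesity libraries lay below the higher NOR library, and the groups overlapped. HBx,Src(p53-) livers had 6.70 and 10.1 FPKM on DIO, against 13.5 and 8.86 FPKM on NOR, and these overlapped too. WT livers had 10.98 FPKM on FAT and 13.8 FPKM on DIO, against 8.14 and 10.3 FPKM on NOR. Here both obesity libraries were above both NOR libraries, as they were for 12.9% of all genes averaging 1 FPKM or more in WT. Of the marker lists, the red blood cell genes (4 matched, nearly all of it hbaa1) moved with the diet in WT. They were 552 to 589 FPKM on the obesity diet and 378 to 489 FPKM on NOR, and their part was not tested.

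None of these axin2 differences passed the test. The diet difference was -0.40 in Src(p53-) (SE 0.58, adjusted p = 1 by limma with Benjamini-Hochberg adjustment over 33727 genes). It was -0.37 in HBx,Src(p53-) (SE 0.58, limma adjusted p = 1) and 0.39 in WT (SE 0.58, limma adjusted p = 1). The 95% intervals ran from -1.70 to 0.89 in Src(p53-), from -1.66 to 0.92 in HBx,Src(p53-) and from -0.90 to 1.68 in WT, and each held differences larger than 1 on the log2 scale. In Src(p53-) the sign turned to 0.15 without the library NOR 2. The Src(p53-) difference was -0.05 with quantile normalization and -0.18 with scaling to a common sum. Over the 3 types of fish together the difference was -0.13 (SE 0.34, limma adjusted p = 0.940, exact two-sided permutation p = 0.657). The share of all genes called at an adjusted p under 0.05 was 0.0771% in Src(p53-), 0.335% in HBx,Src(p53-), 0.0712% in WT and 0.0534% over the 3 types.

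**Figure D1:**
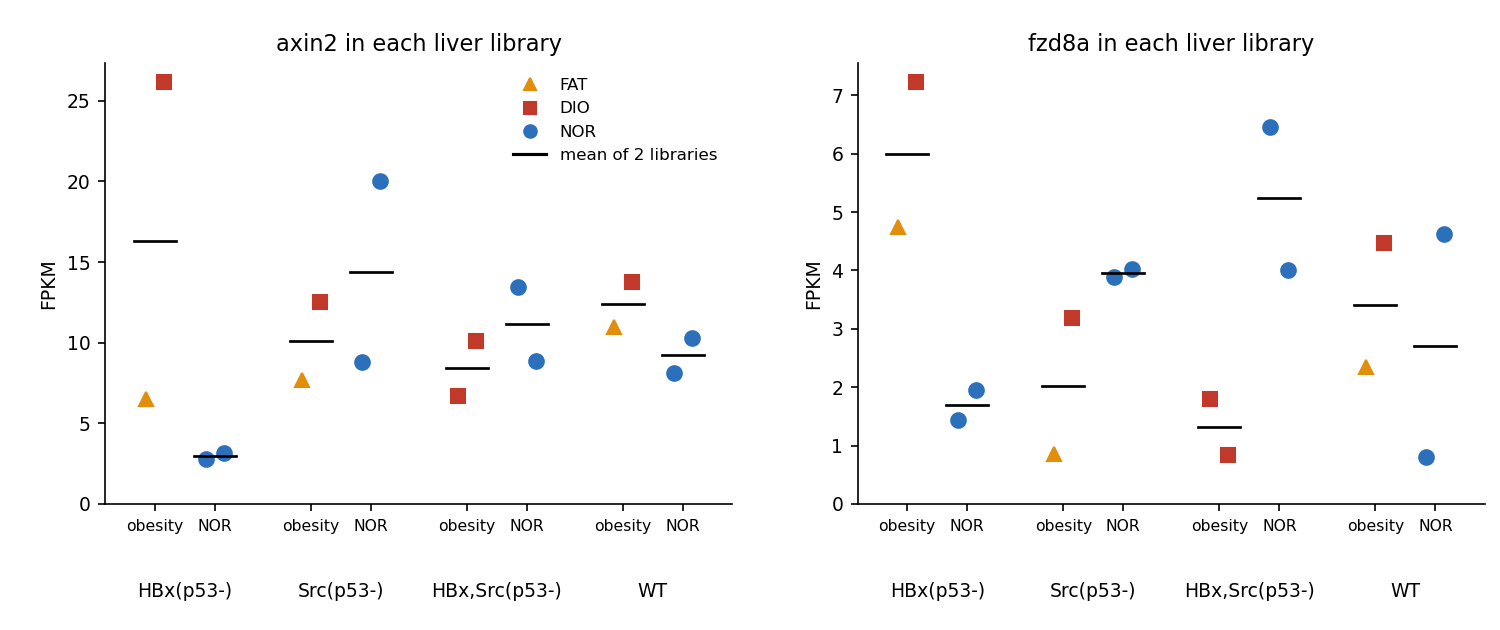
FPKM of axin2 (left) and fzd8a (right) in each of the 16 liver libraries, with the obesity diet (FAT triangles, DIO squares) beside NOR (circles) in each type of fish and a bar at the mean of each 2 libraries. The HBx(p53-) DIO library is the highest for both genes, at 26.2 FPKM for axin2 and 7.23 FPKM for fzd8a, and fzd8a lies lower on the obesity diet in Src(p53-) and HBx,Src(p53-).

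The receptor gene fzd8a was expressed at a lower level, with a mean of 3.29 FPKM, and its diet difference was positive in HBx(p53-) and negative in Src(p53-) and HBx,Src(p53-). Since the HBx(p53-) comparison had chosen the gene, the difference between these types was not tested. In HBx(p53-), fzd8a had 4.75 FPKM on FAT and 7.23 FPKM on DIO, against 1.44 and 1.95 FPKM on NOR. Both obesity libraries were above both NOR libraries, as for 12.9% of all genes averaging 1 FPKM or more in HBx(p53-). The DIO library was again the highest of the 16. The marker lists that separated these libraries are given above for axin2, and their part in the fzd8a result was not tested either. The mean was 5.99 ± 1.76 FPKM on the obesity diet and 1.69 ± 0.36 FPKM on NOR (SD, n = 2 each), a difference of 1.36 on the log2(FPKM + 1) scale, which stayed between 1.101 and 1.62 with any 1 library left out.

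In HBx,Src(p53-) livers fzd8a was lower on the overfed diet. It had 1.81 and 0.836 FPKM on DIO, against 6.46 and 4.01 FPKM on NOR, with no overlap. The means were 1.32 ± 0.69 FPKM on DIO and 5.24 ± 1.73 FPKM on NOR (SD, n = 2 each). The difference was -1.43 (SE 0.58, 95% interval -2.71 to -0.15), with an unadjusted p of 0.0314 and an adjusted p of 0.410 by limma, so it did not pass the test across all genes. In this type of fish 29.6% of the genes averaging 1 FPKM or more had both DIO libraries below both NOR libraries. The src gene was also lower on DIO here, with 3.47 and 4.34 FPKM on DIO against 15.7 and 14.96 FPKM on NOR. The endothelium markers were 17.5 to 20.2 FPKM on DIO and 20.7 to 36.8 FPKM on NOR. The summed leukocyte markers (4 matched) were 34.9 to 44.0 FPKM on DIO and 53.5 to 63.1 FPKM on NOR, and the stellate cell markers (6 matched, pdgfrb listed at 0 throughout) were 3.72 to 6.02 FPKM on DIO and 8.31 to 9.64 FPKM on NOR. The ovary genes (5 matched) summed to 4.89 to 9.56 FPKM on DIO and to 1.21 and 19.9 FPKM on NOR, and the part of these markers in the result was not tested. Without the NOR library of 19.9 FPKM, the fzd8a difference was -1.14.

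In Src(p53-) livers fzd8a had 0.857 FPKM on FAT and 3.19 FPKM on DIO, against 3.89 and 4.03 FPKM on NOR. Both obesity libraries were below both NOR libraries, as for 35.6% of all genes averaging 1 FPKM or more in Src(p53-), and the difference of -0.83 did not pass the test (SE 0.58, limma adjusted p = 0.726). It was -1.42 with DIO left out and -0.24 with FAT left out. Several marker lists moved with the diet in Src(p53-) without overlap. The bile duct markers were 131 to 165 FPKM on the obesity diet and 51.3 to 92.5 FPKM on NOR, and the endothelium markers were 19.9 to 29.2 FPKM on the obesity diet and 14.8 to 18.2 FPKM on NOR. The exocrine pancreas markers (6 matched) were 41.0 to 63.1 FPKM on the obesity diet and 7.34 to 27.9 FPKM on NOR. Of the intestine markers (3 matched), vil1 and cdx1b were listed at 0 throughout, so their sum is cdh17 alone. It stayed under 1 FPKM, at 0.390 to 0.426 FPKM on the obesity diet and 0.445 to 0.716 FPKM on NOR. The part of these marker lists in the result was not tested.

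In WT livers fzd8a had 2.35 FPKM on FAT and 4.47 FPKM on DIO, against 0.809 and 4.62 FPKM on NOR. The 2 NOR livers bracketed both obesity livers. The WT difference was 0.43 (SE 0.58, limma adjusted p = 1), and it turned to -0.39 without the library NOR 1, the lowest fzd8a value of the series. Over the 3 types together fzd8a differed by -0.61 (SE 0.33, limma adjusted p = 0.738, exact two-sided permutation p = 0.176).

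The study asked how diet and genotype act together, so the diet differences of HBx,Src(p53-) and Src(p53-) were set against that of WT. HBx(p53-) was left out of this test because its diet comparison had chosen the genes. For fzd8a the diet difference in HBx,Src(p53-) minus that in WT was -1.86 (SE 0.82, 95% interval -3.66 to -0.05), with an unadjusted p of 0.0449 and an adjusted p of 0.685 by limma. It was -1.04 without the WT library NOR 1 and -2.67 without WT NOR 2. In Src(p53-) minus WT it was -1.25 (SE 0.82, limma adjusted p = 0.755), with -0.44 without WT NOR 1 and -2.07 without WT NOR 2. For axin2 these differences were -0.76 (SE 0.83, limma adjusted p = 0.870) in HBx,Src(p53-) minus WT and -0.79 (SE 0.83, limma adjusted p = 0.852) in Src(p53-) minus WT. With 1 library left out they ranged from -1.04 to -0.48 and from -1.35 to -0.24. None passed the test, against 0.101% of all genes for HBx,Src(p53-) and 0.0534% for Src(p53-). Both sets of differences share the WT libraries. The obesity group was 2 DIO libraries in HBx,Src(p53-) but 1 FAT and 1 DIO library in WT. Any difference between these diets is therefore part of the HBx,Src(p53-) minus WT values and cannot be told apart from the type of fish.

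Averaged over the diets, neither gene passed the test in Src(p53-) or HBx,Src(p53-) against WT. The mean of axin2 was 12.2 ± 5.57 FPKM in Src(p53-), 9.79 ± 2.83 FPKM in HBx,Src(p53-) and 10.8 ± 2.32 FPKM in WT (SD, n = 4 each). The differences from WT were 0.10 for Src(p53-) and -0.15 for HBx,Src(p53-) (SE 0.41 each, exact two-sided permutation p = 0.8 and 0.571, smallest possible p 0.0286). The 95% intervals were -0.81 to 1.01 and -1.06 to 0.77. The mean of fzd8a was 2.99 ± 1.47 FPKM in Src(p53-), 3.28 ± 2.505 FPKM in HBx,Src(p53-) and 3.06 ± 1.83 FPKM in WT (SD, n = 4 each). Its differences from WT were 0.01 in both types of fish (95% intervals -0.89 to 0.91, exact two-sided permutation p = 1 for Src(p53-) and 0.971 for HBx,Src(p53-)), and their sign turned under either other scaling. Across all genes 0.205% were called in Src(p53-) against WT and 1.11% in HBx,Src(p53-) against WT. HBx(p53-) livers had a mean of 9.66 ± 11.1 FPKM of axin2 and 3.84 ± 2.69 FPKM of fzd8a (SD, n = 4 each). Their differences from WT were -0.62 for axin2 and 0.22 for fzd8a, given as a description with no test.

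Ordered by the group means, axin2 was highest in HBx(p53-) on the obesity diet, then in Src(p53-) on NOR, WT on the obesity diet, HBx,Src(p53-) on NOR, Src(p53-) on the obesity diet, WT on NOR and HBx,Src(p53-) on DIO, and lowest in HBx(p53-) on NOR. Each neighbour in this order overlapped the next except the last pair, HBx,Src(p53-) on DIO (6.70 to 10.1 FPKM) and HBx(p53-) on NOR (2.79 to 3.19 FPKM). For fzd8a the order ran from HBx(p53-) on the obesity diet through HBx,Src(p53-) on NOR, Src(p53-) on NOR, WT on the obesity diet, WT on NOR, Src(p53-) on the obesity diet and HBx(p53-) on NOR to HBx,Src(p53-) on DIO. Every neighbour in that order overlapped the next.

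Both genes were lower on FAT than on DIO in each of the 3 types of fish that had both diets. For axin2 the FAT and DIO libraries had 6.49 against 26.2 FPKM in HBx(p53-), 7.70 against 12.5 FPKM in Src(p53-) and 10.98 against 13.8 FPKM in WT, which are FAT to DIO ratios of 0.248, 0.616 and 0.798. For fzd8a they had 4.75 against 7.23 FPKM in HBx(p53-), 0.857 against 3.19 FPKM in Src(p53-) and 2.35 against 4.47 FPKM in WT, ratios of 0.656, 0.269 and 0.526. Of all genes averaging 1 FPKM or more, 13.2% were lower on FAT in all 3 types and 14.4% were higher. Of the 29 Wnt genes described further on, 5 were lower, axin2 and fzd8a among them, and 3 were higher. This comparison was chosen after the values were seen, each diet is 1 library per type of fish, and no test was made.

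**Figure D2:**
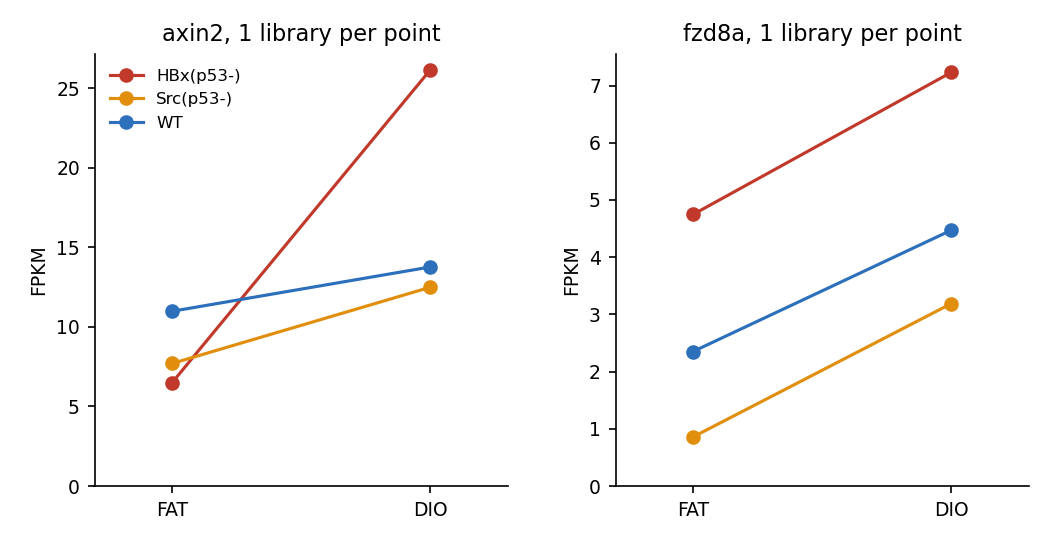
FPKM of axin2 (left) and fzd8a (right) in the single FAT and the single DIO library of HBx(p53-), Src(p53-) and WT, joined by a line per type of fish. Every line rises towards DIO, most steeply for axin2 in HBx(p53-), with 6.49 FPKM on FAT and 26.2 FPKM on DIO.

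The closest relatives of the pair were expressed at very different levels. The second Axin scaffold gene, axin1, which in mammals is expressed without depending on the pathway, had a mean of 11.8 FPKM, close to that of axin2. In HBx(p53-) axin1 had 17.0 FPKM on FAT and 11.2 FPKM on DIO, against 8.98 and 9.10 FPKM on NOR. In HBx,Src(p53-) axin1 had 7.27 and 9.55 FPKM on DIO, against 17.9 and 11.1 FPKM on NOR, with no overlap (difference -0.69, SE 0.47, limma adjusted p = 0.666). In WT axin1 had 14.0 FPKM on FAT and 18.5 FPKM on DIO, against 4.43 and 12.7 FPKM on NOR, also with no overlap (difference 0.98, SE 0.47, limma adjusted p = 1). The ratio of axin2 to axin1 was 0.381 on FAT and 2.33 on DIO in HBx(p53-), against 0.310 and 0.351 on NOR, and it lay between 0.745 and 1.84 in the 12 libraries of the other types. Of the Frizzled 8 pair only fzd8a was expressed to any extent. Its duplicate fzd8b did not exceed 0.107 FPKM and was listed at 0 in 11 libraries.

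**Figure D3:**
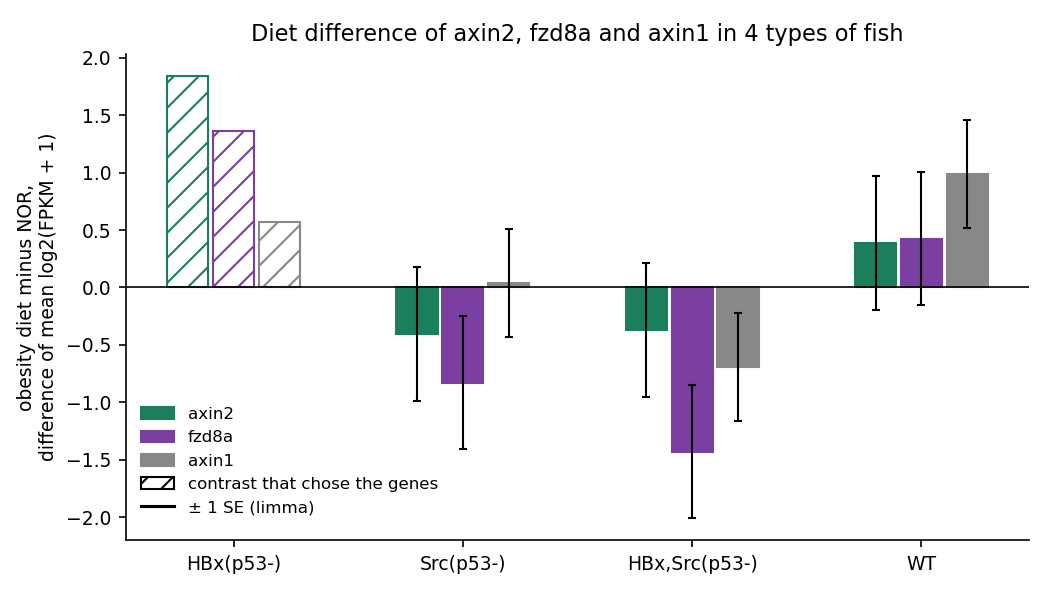
Difference between the obesity diet and NOR in mean log2(FPKM + 1) for axin2, fzd8a and axin1 in each type of fish, with bars for 1 SE where a test was made and hatching for the comparison from which the genes were chosen. The fzd8a bar is at 1.36 in HBx(p53-), -0.83 in Src(p53-), -1.43 in HBx,Src(p53-) and 0.43 in WT.

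To place the pair in its pathway, 132 Wnt genes were listed by role, of which 89 were matched to an entry, 70 were above 0 and 29, axin2 and fzd8a among them, averaged 1 FPKM or more. None of the 20 matched ligand genes reached that level. The most abundant were wnt2ba at 0.409 FPKM and wnt5b at 0.395 FPKM, while wls, the carrier that brings Wnt proteins to the cell surface, had 6.11 FPKM. Among the Frizzled receptors, fzd6 had the highest mean at 6.74 FPKM and fzd8a came second. The co-receptor lrp6 had 48.7 FPKM, and the beta-catenin genes ctnnb2 and ctnnb1 had 121 and 34.5 FPKM. The Dickkopf gene dkk3b had 2.75 FPKM, and rspo3, of the R-spondin family that amplifies the signal, had 1.23 FPKM.

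In HBx(p53-), the median diet difference of the 29 genes was 0.29, against -0.04 for all genes averaging 1 FPKM or more. In 9 of the 29, both obesity libraries were above both NOR libraries, as in 12.9% of all genes, and in 2 both were below, as in 1971 of 12319 genes. The place of axin2 and fzd8a among the 9 was fixed by their choice, and without them 7 of 27 genes were above, with a median difference of 0.18 over the 27. These 7 held genes that carry the signal and genes that restrain it, namely dvl3a, a Dishevelled gene that acts below the receptor, bcl9l and pygo2, co-activators of beta-catenin, the scaffold gene axin1, the secreted antagonist sfrp1a, the beta-catenin inhibitor ctnnbip1, and glulb, a glutamine synthetase gene. None of the 27 was higher by at least 1 on the log2 scale, a size that 4.77% of all genes reached and that axin2 and fzd8a reached by their choice. The genes below were mycb, with 1.19 FPKM on FAT and 8.08 FPKM on DIO against 42.5 and 54.2 FPKM on NOR, and glula, with 4.32 FPKM on FAT and 21.7 FPKM on DIO against 94.8 and 61.2 FPKM on NOR. Glutamine synthetase, which glula encodes, is a beta-catenin target in the mammalian liver, and mycb (a Myc gene) was listed in the role of target and feedback. Both genes were also picked by the study from its microarrays and these libraries, so neither is independent evidence of its direction here. The paralogue glulb went the other way, with 7.03 FPKM on FAT and 4.52 FPKM on DIO, against 2.15 and 3.17 FPKM on NOR. Without the DIO library the median of the 29 genes was -0.04, against -0.18 for all genes averaging 1 FPKM or more.

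In HBx,Src(p53-), 24 of the 29 Wnt genes were lower on DIO, as were 6755 of 12319 genes averaging 1 FPKM or more. The median difference of the 29 was -0.53, against -0.10 for all genes averaging 1 FPKM or more. In 15 of the 29 both DIO libraries were below both NOR libraries, and in 2 both were above, where all genes gave 29.6% and 22.0%. None of the 70 genes tested passed an adjusted p of 0.05 (limma), and at an unadjusted p under 0.05 there were 2 higher and 7 lower, against 1902 higher and 1805 lower of all 33727 genes. The 2 genes with both DIO libraries above were fzd6 and glulb. For glulb the values were 5.88 and 11.5 FPKM on DIO, against 5.11 and 0.857 FPKM on NOR. None of the 5 target and feedback genes was below, and the axin2 libraries overlapped. Roles are counted here among the 29 genes only, and of 22 degradation complex genes listed, 10 were matched to an entry. The 15 genes below lay in roles from the receptor to the nucleus. They held 2 of the 4 Frizzled genes (fzd8a and fzd3b), lrp6, dvl3a, 3 of the 6 genes of the degradation complex (axin1, csnk1da and tnksb), 6 of the 7 nuclear genes, rspo3 and the secreted antagonist sfrp1a. The co-receptor lrp6 had 18.6 and 19.3 FPKM on DIO, against 65.9 and 97.4 FPKM on NOR (difference -2.02, SE 0.52, limma adjusted p = 0.172). The beta-catenin gene ctnnb2 had 124 and 55.5 FPKM on DIO, against 336 and 230 FPKM on NOR (difference -1.73, SE 0.56, limma adjusted p = 0.278), and bcl9l had 15.2 and 8.91 FPKM on DIO, against 35.9 and 41.3 FPKM on NOR (difference -1.64, SE 0.47, limma adjusted p = 0.215). For sfrp1a the values were 7.54 and 6.98 FPKM on DIO, against 13.6 and 21.5 FPKM on NOR (difference -1.13, SE 0.38, limma adjusted p = 0.295). Without the NOR library with the most ovary signal, 17 of the 29 were below and 8 above, against 40.6% and 39.7% of all genes, and the median was -0.29, against 0 for all genes averaging 1 FPKM or more.

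In Src(p53-) the median of the 29 genes was -0.40, against -0.34 for all genes averaging 1 FPKM or more, and 8 were below without overlap, against 35.6% of all genes, and 5 were above, against 1349 of 12319 genes. None of the 70 genes tested was called (limma), and 2 had an unadjusted p under 0.05, as had 8.60% of all genes. The beta-catenin inhibitor ctnnbip1 had 5.73 FPKM on FAT and 4.05 FPKM on DIO, against 23.6 and 32.7 FPKM on NOR (difference -2.31, SE 0.62, limma adjusted p = 0.380). The gene znrf3, whose product removes Frizzled receptors from the cell surface, had 7.28 FPKM on FAT and was listed at 0 on DIO, against 8.49 and 14.8 FPKM on NOR. Genes that carry the signal were among the 8 as well, which also held wls, fzd5, fzd8a, ctnnb1, sfrp1a and myca. The 5 above were gsk3aa and csnk1db of the degradation complex, the nuclear gene tcf7l1a, glula and glulb. In the other direction glula had 54.4 FPKM on FAT and 89.6 FPKM on DIO, against 12.1 and 10.4 FPKM on NOR, a difference of 2.54. The study had picked glula in Src(p53-) too, so this is a description. The paralogue glulb was above in Src(p53-) as well, with 10.7 FPKM on FAT and 3.86 FPKM on DIO, against 0.847 and 1.65 FPKM on NOR.

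In WT the median of the 29 genes was 0.17, against 0.03 for all genes averaging 1 FPKM or more. In 5 of them both obesity libraries were above both NOR libraries, namely axin1, axin2, rspo3, sfrp1a and pygo1, and mycb alone was below (12.9% and 10.1% of all genes). None of the 70 genes tested was called (limma), and 6 had an unadjusted p under 0.05, as had 4.42% of all genes. The sfrp1a gene had 8.35 FPKM on FAT and 8.69 FPKM on DIO, against 4.44 and 2.86 FPKM on NOR (difference 1.06, SE 0.38, limma adjusted p = 1). For mycb the values were 3.95 FPKM on FAT and 16.1 FPKM on DIO, against 34.8 and 18.8 FPKM on NOR (difference -1.53, SE 1.41, limma adjusted p = 1).

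**Figure D4:**
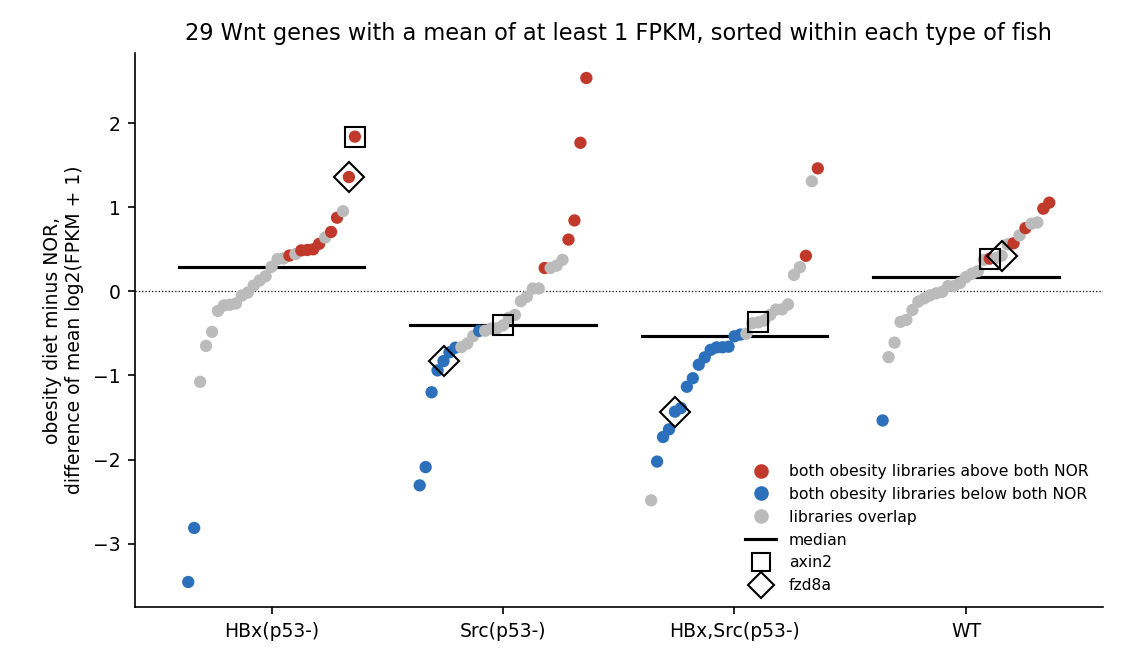
Diet difference in mean log2(FPKM + 1) of the 29 Wnt genes averaging 1 FPKM or more, sorted within each type of fish, with colour for genes whose obesity libraries all lay above or all below the NOR libraries, a line at the median, a square around axin2 and a diamond around fzd8a. The medians are 0.29 in HBx(p53-), -0.40 in Src(p53-), -0.53 in HBx,Src(p53-) and 0.17 in WT.

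Of the 70 Wnt genes tested, 1 passed the test between types of fish. It did so in HBx,Src(p53-) against WT, where 1.11% of all 33727 genes were called. The Dickkopf gene dkk3b rose in HBx,Src(p53-) against WT, with 2.80 to 5.24 FPKM in HBx,Src(p53-) and 0.270 to 1.01 FPKM in WT (difference 1.82, SE 0.27, limma adjusted p = 0.0133). All 4 HBx,Src(p53-) libraries were above all 4 WT libraries, as for 6.60% of all genes averaging 1 FPKM or more. The call was lost under quantile normalization. Without the HBx,Src(p53-) NOR library with the most ovary signal the difference was 2.00 (limma adjusted p = 0.00732). Marker lists of other cell types separated the same 4 libraries from the same 4. The leukocyte markers were 34.9 to 63.1 FPKM in HBx,Src(p53-) and 2.23 to 20.6 FPKM in WT, and the exocrine pancreas markers were 26.1 to 239 FPKM in HBx,Src(p53-) and 4.21 to 20.7 FPKM in WT. The ovary genes were 1.21 to 19.9 FPKM in HBx,Src(p53-) and 0.114 to 0.750 FPKM in WT, and the hepatocyte markers were 5173 to 7023 FPKM in HBx,Src(p53-) and 3227 to 4648 FPKM in WT. Their part in the dkk3b difference was not tested.

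In HBx(p53-) dkk3b had 3.39 to 4.59 FPKM and in Src(p53-) 1.17 to 3.26 FPKM (Src(p53-) against WT: difference 0.99, SE 0.27, limma adjusted p = 0.287). The Wnt carrier wls had 9.70 to 15.2 FPKM in HBx,Src(p53-) and 1.44 to 7.35 FPKM in WT, a difference of 1.47 that did not pass (SE 0.53, limma adjusted p = 0.2498).

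The genes whose levels most resembled those of axin2 and fzd8a were found among 5332 named genes by Pearson correlation of log2(FPKM + 1) over the 16 libraries, as a description. The libraries share types of fish and diets. For axin2 the nearest were ftr82 (r = 0.81), rhof (r = 0.81), adob (r = 0.81), ezh2 (r = 0.78), which encodes a histone methyltransferase of the Polycomb group, and nr2f5 (r = 0.76), which encodes a nuclear receptor. All of these but nr2f5 were lowest in the 2 HBx(p53-) NOR libraries. In HBx(p53-), ezh2 for example had 3.88 FPKM on FAT and 14.2 FPKM on DIO, against 0.486 and 1.13 FPKM on NOR. For nr2f5 the HBx(p53-) NOR libraries had 2.13 and 5.01 FPKM, and WT NOR 1 had 2.57 FPKM. With the 2 libraries farthest from the axin2 median left out, HBx(p53-) NOR 1 and DIO, the r values were 0.61 to 0.79. For fzd8a the nearest were smad6b (r = 0.85), an inhibitor of BMP signalling, rnd1b (r = 0.84), med14 (r = 0.83), a Mediator subunit, jag1b (r = 0.82), a Notch ligand, and nr2f5 (r = 0.82). With the 2 libraries farthest from the fzd8a median left out, WT NOR 1 and HBx,Src(p53-) DIO 2, these were 0.72 to 0.82. The pair itself had r = 0.56 (Spearman's rho 0.56), and r = 0.39 without the same 2 libraries as for axin2. Both genes were chosen for their rise in HBx(p53-), so part of this likeness was fixed by the choice. The value of 0.39 still includes HBx(p53-) NOR 2 and FAT. The gene fzd8a resembled axin1 more closely, with r = 0.73 (rho 0.77), while axin2 and axin1 had r = 0.38 (rho 0.61).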

How the data were processed

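RNA-seq was made from zebrafish liver. The deposited values are FPKM, which the authors made from reads aligned to GRCz10. The submitters' processing notes name FastQC 0.11.5, HISAT2 2.1.0, SAMtools 1.7, StringTie 1.3.4d and R 3.5.3. FPKM divides by transcript length and library total, so a few abundant genes can move all others, and whole reads could not be recovered from the values. Strand use in counting is not given in the sources used here.

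The series table held 35885 entries. Of 12235 entries with a RefSeq transcript name, 11763 were matched to a symbol in RefSeq's GRCz12tu gene table, which was used for names only, and entries of 1 symbol were summed to 35868 genes. Sequences and coordinates were not used here.

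The 33727 genes above 0 were fitted with limma 3.58.1 in R 4.3.3 (trend, 8 groups of type of fish and diet class) on log2(FPKM + 1), with a pseudocount of 1 and Benjamini-Hochberg adjustment at 0.05. Fold changes on this scale understate the change of low genes. All 16 libraries entered 1 fit. Single values were tested by exact two-sided permutation. Counts of genes without overlap between libraries used genes averaging 1 FPKM or more.

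The genes, Wnt roles and marker lists were chosen with earlier results of these data known. Named Wnt genes were the 2 of highest mean per role, every called gene, up to 3 with the largest separate difference of at least 1 per type of fish, and the 5 genes most like each of axin2 and fzd8a. Others (fzd3b, csnk1da, tnksb, pygo1 and dvl3a among them) are named as members of a count. Alternatives were a pseudocount of 0.1, a filter at a mean of 1 FPKM, quantile normalization, scaling to a common sum, a replicate block, the highest entry in place of the sum, and each library left out. Python 3.11.15, pandas 2.3.3, numpy 2.4.6 and matplotlib 3.10.9 were used.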

Additional observations from a re-analysis of the deposited data

Results flagged for a closer look

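The diet difference of fzd8a, on the log2(FPKM + 1) scale, pointed one way in every HBx(p53-) library and the other way in every Src(p53-) and HBx,Src(p53-) library. It was -0.83 in Src(p53-) against 1.36 in HBx(p53-), a gap of -2.19, and -1.43 in HBx,Src(p53-) against 1.36 in HBx(p53-), a gap of -2.79. These gaps were not tested, because the HBx(p53-) comparison was used to choose the gene.

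The same kind of opposite movement appeared in other named genes, given as Src(p53-) or HBx,Src(p53-) minus the other type. Each gene given here had obesity libraries all above NOR in 1 type of fish and all below in another. Of all genes averaging 1 FPKM or more, 12.9% lay wholly above in WT, as did 12.9% for HBx(p53-). Wholly below were 29.6% for HBx,Src(p53-), while Src(p53-) had 35.6%. The share of all genes with such opposite movement was not counted, so these genes do not show a pattern special to the Wnt list. Set against WT, the diet difference in HBx,Src(p53-) was lower by a gap of -1.68 for axin1 (limma adjusted p = 0.618), -1.29 for rspo3 (limma adjusted p = 0.512) and -2.19 for sfrp1a (limma adjusted p = 0.261), and sfrp1a had a gap of -1.72 in Src(p53-) (limma adjusted p = 0.646). None of these passed the test. Set against HBx(p53-), the gaps in HBx,Src(p53-) were -1.26 for axin1, -1.63 for sfrp1a, -1.88 for dvl3a, -1.001 for ctnnbip1 and -2.07 for bcl9l. In Src(p53-) they were -1.17 for sfrp1a, -2.79 for ctnnbip1 and 5.35 for glula. The study had picked glula from both of these types of fish. The gaps against HBx(p53-) were not tested, and those that share a type of fish are not independent of each other.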

How the results depend on the processing

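No setting brought axin2 or fzd8a past the threshold in any tested comparison, and the lowest adjusted p over all alternatives was 0.147, for the fzd8a diet difference in HBx,Src(p53-) minus that in WT. With quantile normalization axin2 over the 3 types turned to 0.0125, fzd8a in Src(p53-) against WT to -0.0515 and fzd8a in HBx,Src(p53-) against WT to -0.25. With scaling to a common sum those 2 fzd8a values were -0.0744 and -0.0656. With 1 library left out, the axin2 diet difference ranged from -0.96 to 0.15 in Src(p53-) and from -0.31 to 0.0568 over the 3 types (positive without Src(p53-) NOR 2), and axin2 in Src(p53-) against WT ranged from -0.18 to 0.38. The fzd8a diet difference in WT ranged from -0.39 to 1.24, fzd8a in Src(p53-) against WT from -0.40 to 0.42, in HBx,Src(p53-) against WT from -0.40 to 0.42 and in HBx(p53-) against WT from -0.19 to 0.63, each lowest without WT NOR 1. With a pseudocount of 0.1 the fzd8a difference in HBx(p53-) was 1.75. The cause was not tested.

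The number of Wnt genes called with 1 library left out ranged from 0 to 3 in WT and in HBx,Src(p53-) minus WT, from 0 to 2 in HBx,Src(p53-), over the 3 types and in Src(p53-) against WT, from 0 to 1 in Src(p53-) and in Src(p53-) minus WT, and from 1 to 3 in HBx,Src(p53-) against WT. Apart from dkk3b these were genes with a mean under 1 FPKM, and with quantile normalization the last count was 0. With 1 library left out, calls over all 33727 genes could also rise well above those of the main fit, in each of these comparisons. Each such fit left a group with 1 library. Where calls over all genes rose, the extra Wnt calls cannot be told apart from that rise. Some extra Wnt calls came without it, as for dvl1b (mean 0.0372 FPKM) in HBx,Src(p53-) with an HBx(p53-) NOR library left out. The cause of the extra Wnt calls was not tested. The median of the 29 Wnt genes with 1 library left out ranged from -0.82 to -0.29 in HBx,Src(p53-). The alternative without HBx,Src(p53-) NOR 1 for the count of 15 genes was chosen after seeing the data.

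The labels number the NOR libraries 1 and 2 in every type of fish and the HBx,Src(p53-) DIO libraries likewise. Deviations of same-numbered libraries correlated between -0.26 and 0.22, so the numbers were not taken to pair them. A replicate block on these numbers left the fzd8a difference in HBx,Src(p53-) at -1.43 (limma adjusted p = 0.416) and no count of called Wnt genes moved.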
